A study of Mus musculus with 4 samples.

Results

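The genes examined were *Scgb1b27*, *Scgb2b26* and *Scgb2b27*, which code for the subunits of the salivary androgen-binding protein of the mouse. They were taken as the rows of the deposited matrix that carry these 3 names, out of 32285 gene rows, and each name occurred once. The matrix came from droplet-based single-cell RNA sequencing (10x Genomics, 3' ends of transcripts) of submandibular gland (SMG) and sublingual gland (SLG) taken fresh from wild-type female C57BL/6N mice, 6 to 8 weeks old, in physiological status, with no treatment and no transgene named. The 4 samples of the series form 1 group, the labels speak of 2 mice and the methods of 3, and a sample is tied to no animal or gland. All 15707 barcodes carried 1 suffix and none was repeated, so nothing links a cell to its animal or gland. The matrix was therefore counted as 1 sample, no test between samples was possible, and the 95% intervals given here cover counting error only.

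Androgen-binding protein is a secreted dimer of small secretoglobins, in which an alpha subunit is joined by disulfide bonds to a beta subunit. In the mouse the alpha subunits are coded by Scgb1b genes and the beta subunits by Scgb2b genes, which lie together in a cluster of paralogues. The protein is abundant in mouse saliva, binds steroids, and has been studied for its part in how mice of different subspecies recognise each other. *Scgb1b27* codes for an alpha subunit, whereas *Scgb2b26* and *Scgb2b27* each code for a beta subunit, so the proportion of alpha to beta transcripts and the proportion of one beta gene to the other could be read in every cell.

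All 3 genes lie on chromosome 7 (GRCm38, GENCODE M21), each with 3 exons. *Scgb2b26* (ENSMUSG00000066586) spans positions 33943002 to 33945040 on the minus strand. *Scgb2b27* (ENSMUSG00000066584) spans 34011921 to 34013942 on the minus strand, and *Scgb1b27* (ENSMUSG00000066583) spans 34021483 to 34022881 on the plus strand. *Scgb2b27* and *Scgb1b27* are transcribed away from each other, with starts 7.541 kb apart, whereas the starts of the beta genes are 68.9 kb apart with 4 pseudogenes between them. No annotated gene overlaps any of the 3. The coding sequences of the beta genes were identical at 74.3% of aligned positions, and that of *Scgb1b27* matched *Scgb2b26* at 174 of 348 and *Scgb2b27* at 177 of 362 aligned positions. No stretch of 90 bases of the main transcript of any member occurred in a transcript of another gene. Error-free reads of that length from these main transcripts could therefore be told apart. The members' other transcripts were not searched in this way.

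**Figure D1:**
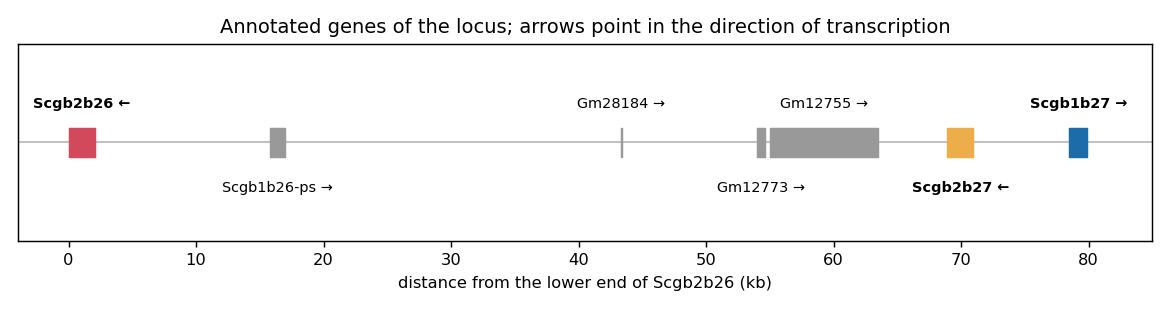
Map of the locus over 79.88 kb, drawn to scale. The x axis gives the distance in kb from the lower end of *Scgb2b26*, boxes are the 7 annotated genes of the span, and arrows beside the names give the direction of transcription. *Scgb2b27* and *Scgb1b27* are neighbours that point away from each other, and the grey boxes are pseudogenes.

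The promoter windows are shown because the genes followed each other across most cells and the beta genes parted in 1 group of cells described further on. Each window runs 5′ to 3′ from 250 bases before to 50 bases after the start annotated by RefSeq (GRCm38.p6), at chr7:34021231-34021530 (plus strand) for *Scgb1b27*, chr7:33944936-33945235 (minus strand) for *Scgb2b26* and chr7:34013893-34014192 (minus strand) for *Scgb2b27*. Capitals mark the letters of the TATA motif TATAAA or its reverse complement TTTATA.
Scgb1b27: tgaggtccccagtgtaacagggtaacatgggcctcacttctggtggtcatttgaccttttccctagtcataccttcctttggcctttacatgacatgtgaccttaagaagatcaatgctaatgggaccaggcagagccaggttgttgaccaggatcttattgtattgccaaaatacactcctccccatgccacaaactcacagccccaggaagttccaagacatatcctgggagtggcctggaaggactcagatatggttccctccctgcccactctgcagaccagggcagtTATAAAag
Scgb2b26: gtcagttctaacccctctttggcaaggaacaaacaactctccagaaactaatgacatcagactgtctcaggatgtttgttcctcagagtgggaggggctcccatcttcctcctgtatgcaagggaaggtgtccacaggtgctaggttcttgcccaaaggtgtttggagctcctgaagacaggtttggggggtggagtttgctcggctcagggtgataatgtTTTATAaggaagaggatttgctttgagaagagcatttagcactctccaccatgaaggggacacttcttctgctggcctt
Scgb2b27: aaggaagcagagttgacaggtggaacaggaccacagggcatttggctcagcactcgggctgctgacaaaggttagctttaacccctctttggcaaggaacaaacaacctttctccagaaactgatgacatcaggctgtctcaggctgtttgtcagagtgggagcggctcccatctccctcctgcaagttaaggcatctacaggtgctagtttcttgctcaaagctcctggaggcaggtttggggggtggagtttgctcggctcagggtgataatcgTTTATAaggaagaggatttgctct

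The windows of the beta genes aligned over 246 columns with 83.7% identity, whereas the window of *Scgb1b27* aligned with either over 29 columns only. Each window held the TATA motif once, and 14.2% of 27025 promoter windows of the same length hold it. It began 29 bases before the annotated start in *Scgb2b26*, and 26 and 42 bases after it in *Scgb2b27* and *Scgb1b27*, and in the beta genes it was read on the opposite strand. The CCAAT box (CCAAT), the E-box CAGCTG, the forkhead motif TGTTTAC and the letters TGTTCT, part of the androgen and glucocorticoid response element, were searched on both strands, and their letters occurred in none of the 3 windows. They are held by 37.9%, 16.1%, 3.55% and 19.02% of all windows. These matches describe letters and not binding.

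The 3 genes together gave 22045780 UMIs (unique molecular identifiers, each marking 1 captured RNA molecule), or 17.6% of the 125100595 UMIs of the matrix. *Scgb1b27* gave 12939264 UMIs and was at rank 2 among all genes, with 10.3% of all UMIs. *Scgb2b27* gave 5839278 (rank 4) and *Scgb2b26* gave 3267238 (rank 6). The alpha gene thus made up 58.7% of the UMIs of the 3 genes, *Scgb2b27* 26.5% and *Scgb2b26* 14.8%. Since each captured molecule counts once, whatever its length, UMIs were compared between the genes without a length term, and their main transcripts are of similar length (493, 512 and 579 bases for *Scgb1b27*, *Scgb2b27* and *Scgb2b26*).

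Transcripts of the 3 genes were found in nearly every droplet. A UMI of *Scgb1b27* was present in all 15707 cells, with a median of 108 and a highest count of 31929 in a cell. *Scgb2b27* was present in 15705 cells (median 53, highest 12676) and *Scgb2b26* in 15632 cells (median 23, highest 7215). The middle of the distribution therefore lay far below its top, and presence alone did not separate cell types.

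Cells were grouped without the secretoglobin genes into 23 clusters (numbered 0 to 22), and 14 of these could be named from marker lists. Cluster 2 (1267 cells, median 27530 UMIs) had 7 of the 9 serous acinar markers, *Aqp5*, *Bhlha15*, *Prol1*, *Gjb1*, *Cldn10*, *Lpo* and *Car6*, and is called serous acinar-like. Lymphoid-like cells (clusters 3, 18 and 19, 1232 cells, median 1867 UMIs) should lack these genes. They were taken as the measure of free RNA, the transcripts of broken cells that enter every droplet. Droplets with several cells (doublets) among them were not excluded. The other named classes were myeloid-like (1066 cells), ductal-like (2957), vascular-like (704), mesenchymal-like (365) and mucinous acinar-like (cluster 14, 337 cells). Cluster 14 had 6 mucinous and 5 serous acinar markers, so its name rested on a narrow margin. The remaining 7779 cells were left unnamed and are given by cluster number. Among these, clusters 1 (2395 cells, led by *Prol1*) and 5 (1000 cells, led by *Mucl2*) carried serous genes, and clusters 10 (533 cells, median 24174 UMIs) and 0 (2902 cells, median 2067 UMIs) were led by Dcpp genes, which code for demilune cell and parotid proteins.

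The level of all 3 genes was highest in serous acinar-like cells. *Scgb1b27* stood at 1572 UMIs per 10000 UMIs of all genes there (95% interval 1570 to 1573), against 222 (220 to 223) in lymphoid-like cells. *Scgb2b27* stood at 714 (713 to 715) against 106 (105 to 107), and *Scgb2b26* at 399.2 (399 to 400) against 53.7 (52.8 to 54.5). On this scale the levels were 7.09-, 6.73- and 7.44-fold higher for *Scgb1b27*, *Scgb2b27* and *Scgb2b26*, beyond counting error. All 3 members passed a 4-fold limit that 4.08% of the 11465 genes compared passed, and the median fold of all genes was 0.157.

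Counted per cell the distance was larger, as was the depth (medians of 27530 and 1867 UMIs per cell). Serous acinar-like cells held 4611 UMIs of *Scgb1b27*, 2095 of *Scgb2b27* and 1171 of *Scgb2b26* per cell on average. In lymphoid-like cells the mean was 47.0, 22.5 and 11.4 UMIs, so the folds per cell were 98.2, 93.2 and 103 for *Scgb1b27*, *Scgb2b27* and *Scgb2b26*. For the 3 genes together the mean per lymphoid-like cell was 80.8 UMIs but the median was 43. Of 10 bins of these cells by total UMIs, the 3 genes took 3.06% of the UMIs in the shallowest and 5.60% in the deepest. Whether doublets raised the mean was not tested. With every cell thinned to 500 UMIs, all serous acinar-like cells still had a UMI of each gene, but so did 98.7% of lymphoid-like cells for *Scgb1b27*, 93.8% for *Scgb2b27* and 78.8% for *Scgb2b26*. *Mucl2*, which codes for a mucin-like protein of serous cells, was likewise at 1045 UMIs per 10000 in lymphoid-like cells. A count of cells with a UMI was therefore not read as expression.

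The order of the clusters was much alike for the 3 genes. For each gene the 4 highest were clusters 1, 2, 5 and 12, with cluster 2 at the top, and of these cluster 12 was led by the macrophage complement gene *C1qc* and also held *Mucl2* at 5124 UMIs per 10000. Cluster 14 (mucinous acinar-like) followed, with *Scgb1b27* at 882, *Scgb2b27* at 411 and *Scgb2b26* at 201 UMIs per 10000. Vascular-like cells came next, at 772, 364 and 191, where *Mucl2* stood at 2898 and *Dcpp3* at 642. The levels of both classes rested on the clustering. The summed level of the 3 genes in mucinous acinar-like cells was 1494 UMIs per 10000 in this clustering (337 cells), 576 at resolution 0.8 (256 cells), 320 with 30 principal components (173 cells) and 211 with 10 (127 cells). In vascular-like cells it was 1327 (704 cells), against 485 at resolution 0.8 (291 cells) and 254 with 10 components (213 cells), whereas in lymphoid-like cells it stayed between 364 and 394 under every clustering tried. Neighbours in the order were apart beyond their counting intervals in 17 of 22 pairs for *Scgb1b27* and *Scgb2b27* and in 16 for *Scgb2b26*. The pairs that overlapped all lay below the 10 highest clusters.

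The lower end of the order differed between the genes. From the highest to the lowest cluster the level ranged 19-fold for *Scgb1b27* and 13.9-fold for *Scgb2b27*, both lowest in cluster 11 (ductal-like, led by *Klk1b22*), at 82.7 and 51.3 UMIs per 10000. For *Scgb2b26* the range was 47.0-fold and the lowest cluster was cluster 10, at 8.5 UMIs per 10000 (8.34 to 8.66), where *Scgb1b27* was at 83.8 and *Scgb2b27* at 98.1. Cluster 10 was thus the only cluster of the 23 in which a beta gene stood above the alpha gene. With 10 principal components the mucinous acinar-like cluster was another, with *Scgb2b27* at 98.9 and *Scgb1b27* at 95.4 UMIs per 10000.

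**Figure D2:**
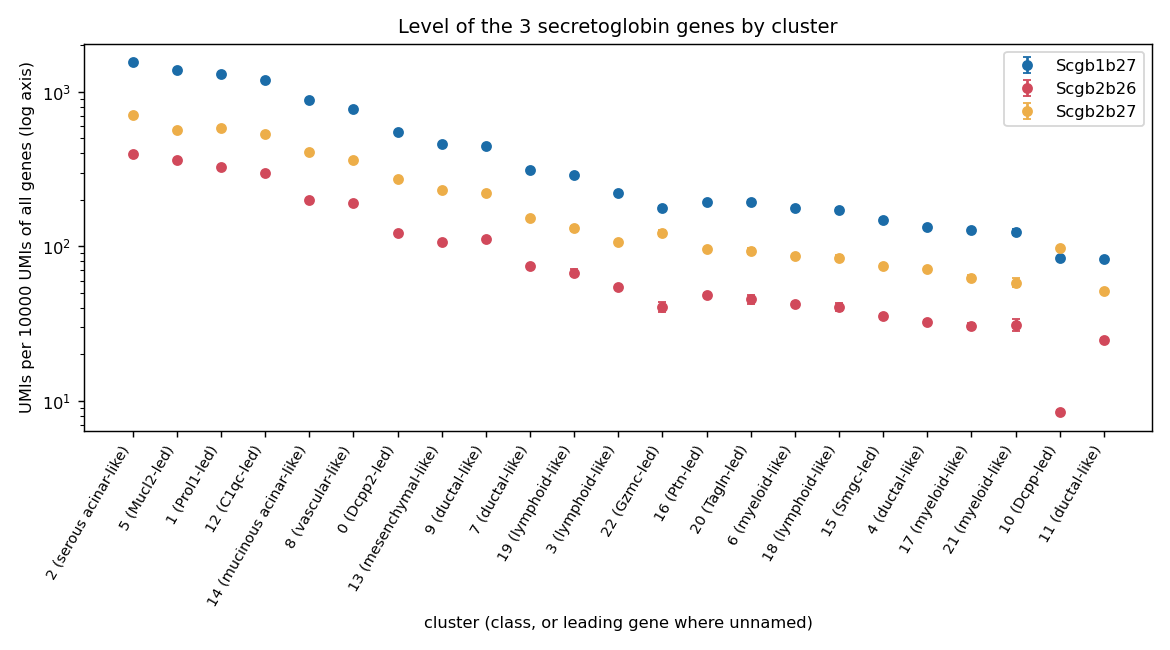
Level of *Scgb1b27*, *Scgb2b26* and *Scgb2b27* in each of the 23 clusters, ordered by the summed level. The y axis gives UMIs per 10000 UMIs of all genes on a log scale, and bars are exact Poisson 95% intervals, mostly smaller than the points. The points of the 3 genes run in parallel except in cluster 10, where *Scgb2b26* is at 8.5 and *Scgb2b27* lies above *Scgb1b27*.

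The alpha share, the share of *Scgb1b27* among the UMIs of the 3 genes, was nearly the same in most clusters. Serous acinar-like cells had an alpha share of 58.5% (95% exact binomial interval 58.5 to 58.6), and lymphoid-like cells had 58.1% (57.8 to 58.4). It lay between 56% and 60% in 20 of the 22 clusters other than cluster 10, and the highest was 59.8% in cluster 5. In 18 of the 22 pairs of neighbours in this order the intervals overlapped. The mean of *Scgb1b27* was 37.0 UMIs per cell in cluster 4, 41.7 in cluster 11 and 41.8 in myeloid-like cells. Lymphoid-like cells held 47.0, mesenchymal-like cells 127 and vascular-like cells 288. How far the shares of these clusters were those of free RNA was not tested. The alpha share was 52.0% (51.6 to 52.5) in cluster 11 and 52.2% (50.9 to 53.5) in cluster 22 (36 cells, led by *Gzmc*). In cluster 10 it was 44.0% (43.8 to 44.2), which corresponds to 0.786 alpha UMIs for each beta UMI against 1.41 in serous acinar-like cells.

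The choice between the beta genes also set clusters 10 and 22 apart, but not cluster 11. In cluster 11 *Scgb2b26* made up 32.7% (32.0 to 33.3) of the beta UMIs. *Scgb2b26* made up 35.9% (35.8 to 35.9) of the beta UMIs in serous acinar-like cells, 39.0% in cluster 5 and 35.8% in cluster 1. It was 33.6% in lymphoid-like cells, taken here as free RNA, and 32.8% in cluster 14. Of the 22 clusters other than cluster 10, 21 lay between 30% and 40%, and cluster 22 was at 25.1% (23.5 to 26.8). Cluster 10 was at 7.98% (7.83 to 8.13), so that *Scgb2b27* outnumbered *Scgb2b26* by 11.5 to 1 there and by 1.79 to 1 in serous acinar-like cells. The shares of the mucinous acinar-like class moved with its level: the *Scgb2b26* share was 27.8% at resolution 0.8, 19.7% with 30 principal components and 14.5% with 10, and the alpha share 53.3%, 47.7% and 45.2%.

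**Figure D3:**
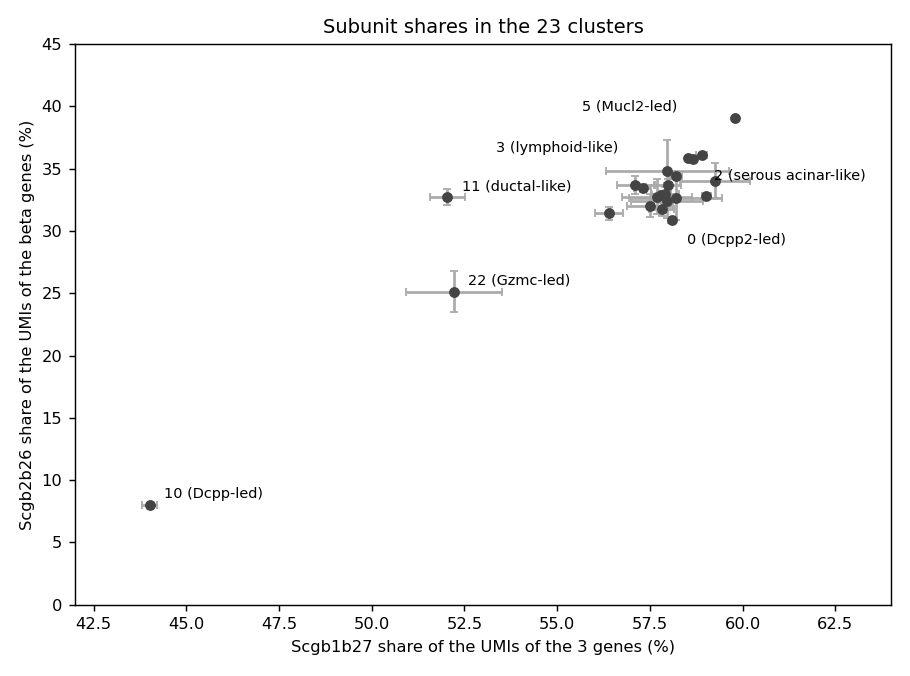
Each point is 1 of the 23 clusters. The x axis gives the share of *Scgb1b27* among the UMIs of the 3 genes and the y axis the share of *Scgb2b26* among the beta UMIs, both in percent, with exact binomial 95% intervals that cover counting error only. Most clusters lie close together around their medians of 58.0% and 32.9%, and cluster 10 stands apart at 44.0% and 7.98%.

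Cluster 10 was examined further because of this difference, so its values were chosen after they had been seen. Its leading genes were *Mup4*, *Dcpp3*, *Bpifa2*, *Dcpp1* and *Dcpp2*. It had equal numbers of serous and mucinous acinar markers, 3 of each, and so was left unnamed. *Dcpp3* stood at 4175 UMIs per 10000 there against 9.41 in serous acinar-like cells, and *Mucl2* at 161 against 5662. Per 10000 UMIs, *Scgb1b27* was 18.8-fold higher in cluster 2 than in cluster 10, *Scgb2b26* 47.0-fold and *Scgb2b27* 7.28-fold. All 3 passed the 4-fold limit, which 3.05% of 10777 genes passed in this comparison, where the median fold of all genes was 0.927.

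Set against *Mucl2*, the 3 genes parted in cluster 10. *Scgb2b26* gave 0.0527 UMIs for each UMI of *Mucl2* in cluster 10, within the range of 0.0482 to 0.0705 over the other 22 clusters, and 0.0514 in lymphoid-like cells. *Scgb1b27* gave 0.519 UMIs for each UMI of *Mucl2*, against 0.196 to 0.293 in the other clusters. *Scgb2b27* gave 0.608, against 0.0885 to 0.157. Thus in cluster 10 the proportion of *Scgb2b26* to *Mucl2* lay within the range of the other clusters. That of *Scgb2b27* was 5.61 times, and that of *Scgb1b27* 2.30 times, the median proportion of the other clusters. *Mucl2* averaged 378 UMIs per cell in cluster 10 against 221 in lymphoid-like cells, and *Scgb2b26* 19.9 against 11.4. How much of either was free RNA was not tested.

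Counted per cell, cluster 10 held more of the 3 genes than lymphoid-like cells did, at medians of 24174 and 1867 UMIs per cell. Per 10000 UMIs the direction was opposite, at 83.8 against 222 for *Scgb1b27*, 98.1 against 106 for *Scgb2b27* and 8.5 against 53.7 for *Scgb2b26*. The mean per cell was 196 UMIs of *Scgb1b27*, 230 of *Scgb2b27* and 19.9 of *Scgb2b26*. After the mean of lymphoid-like cells was taken away, 149 UMIs of *Scgb1b27*, 207 of *Scgb2b27* and 8.55 of *Scgb2b26* remained per cell. The *Scgb2b26* share of the beta UMIs was then 3.96% and the alpha share 40.9%. The share of 7.98% rested on the clustering as well: it was 16.1% with 10 principal components, and at a resolution of 0.3 no such cluster was formed. Whether free RNA was as abundant in these droplets as in those of lymphoid-like cells was not tested.

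Cell by cell, the alpha share of serous acinar-like cells was centred on 58.7% (median over 1267 cells with at least 100 UMIs of the 3 genes, interval 58.4 to 58.9). Single cells ranged from 30.8% to 83.0%, with a standard deviation (SD) of 5.72 percentage points. Counting error at a median of 7181 UMIs per cell accounts for 0.857 points, so an SD of 5.65 points was left beyond it. In 132 of the 1267 cells (10.4%, 8.79 to 12.2) the beta UMIs exceeded the alpha UMIs. The same was true of 4 of 251 lymphoid-like cells (1.59%, 0.436 to 4.03), in which the SD beyond counting error was 1.60 points at a median of 182 UMIs. Single serous acinar-like cells thus differed from each other by more than the counting of molecules gives, and lymphoid-like cells by less than they did. Such a spread was not particular to serous acinar-like cells. It was 2.91 points in myeloid-like, 4.13 in mesenchymal-like, 4.17 in vascular-like, 4.67 in ductal-like and 9.74 in mucinous acinar-like cells. Beta UMIs exceeded alpha UMIs in 3.11%, 6.21%, 3.80%, 7.71% and 15.1% of the cells of these classes, in the same order.

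The *Scgb2b26* share of the beta UMIs varied more than the alpha share in serous acinar-like cells. Its median was 33.7% (33.2 to 34.0) over 1266 cells with at least 50 beta UMIs, and the lower and upper quartiles were 28.7% and 38.1%. The SD beyond counting error was 7.03 points, against 6.87 in cluster 5 and 3.22 in the 197 lymphoid-like cells with 50 beta UMIs. Other classes also had such a spread. It was 3.55 points in myeloid-like, 4.30 in ductal-like, 5.06 in mesenchymal-like, 6.24 in vascular-like and 10.6 in mucinous acinar-like cells. *Scgb2b26* outnumbered *Scgb2b27* in 9 of the 1266 cells (0.711%), in 26 of 973 cells of cluster 5 and in 92 of 9462 cells of the whole matrix. *Scgb2b27* was therefore the more abundant beta gene in nearly all single cells as well as in the sums.

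Cluster 10 held a wide range of alpha shares rather than 1 value. The median was 42.1% (39.3 to 44.2) over 459 cells, single cells ran from 7.38% to 66.3%, and the SD beyond counting error was 14.7 points. The beta UMIs exceeded the alpha UMIs in 317 of the 459 cells (69.1%, 64.6 to 73.3). The *Scgb2b26* share was low in most of them, with a median of 6.10% (5.62 to 6.88) and with 368 of 462 cells under 15% (79.7%, 75.7 to 83.2), a limit set after seeing the data. In serous acinar-like cells 8 of 1266 lay under that limit (0.632%, 0.273 to 1.24).

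Cells with a low *Scgb2b26* share were also found outside cluster 10. In the whole matrix 531 of 9462 cells lay under 15%, and 376 lay between 10% and 20%, near the limit. Cluster 14 (mucinous acinar-like) held 40 such cells of 276 (14.5%, 10.6 to 19.2) and cluster 0 held 86 of 2073 (4.15%, 3.33 to 5.10). The 40 cells of cluster 14 had 66.9% of their UMIs on *Dcpp1* to *Dcpp3* and 1.99% on *Mucl2*, whereas the other 236 cells of that cluster had 11.6% and 42.9%. Their alpha share was 39.6% against 59.7% in the other 236. The 86 cells of cluster 0 had 75% of their UMIs on the Dcpp genes and an alpha share of 49.9%, against 35.6% and 58.5% in the other 1987. In both clusters a low *Scgb2b26* share thus went with a high share of Dcpp UMIs and a low alpha share. The cells under 15% were also deeper, at medians of 27312.5 against 5560.5 UMIs per cell in cluster 14. In cluster 0 the medians were 4316 against 2153. The 8 serous acinar-like cells under 15% differed in both respects. They had 0.398% of their UMIs on the Dcpp genes and were shallower than the other 1258, at medians of 4488.5 against 27678.5. The part of depth and free RNA in these differences was not tested.

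**Figure D4:**
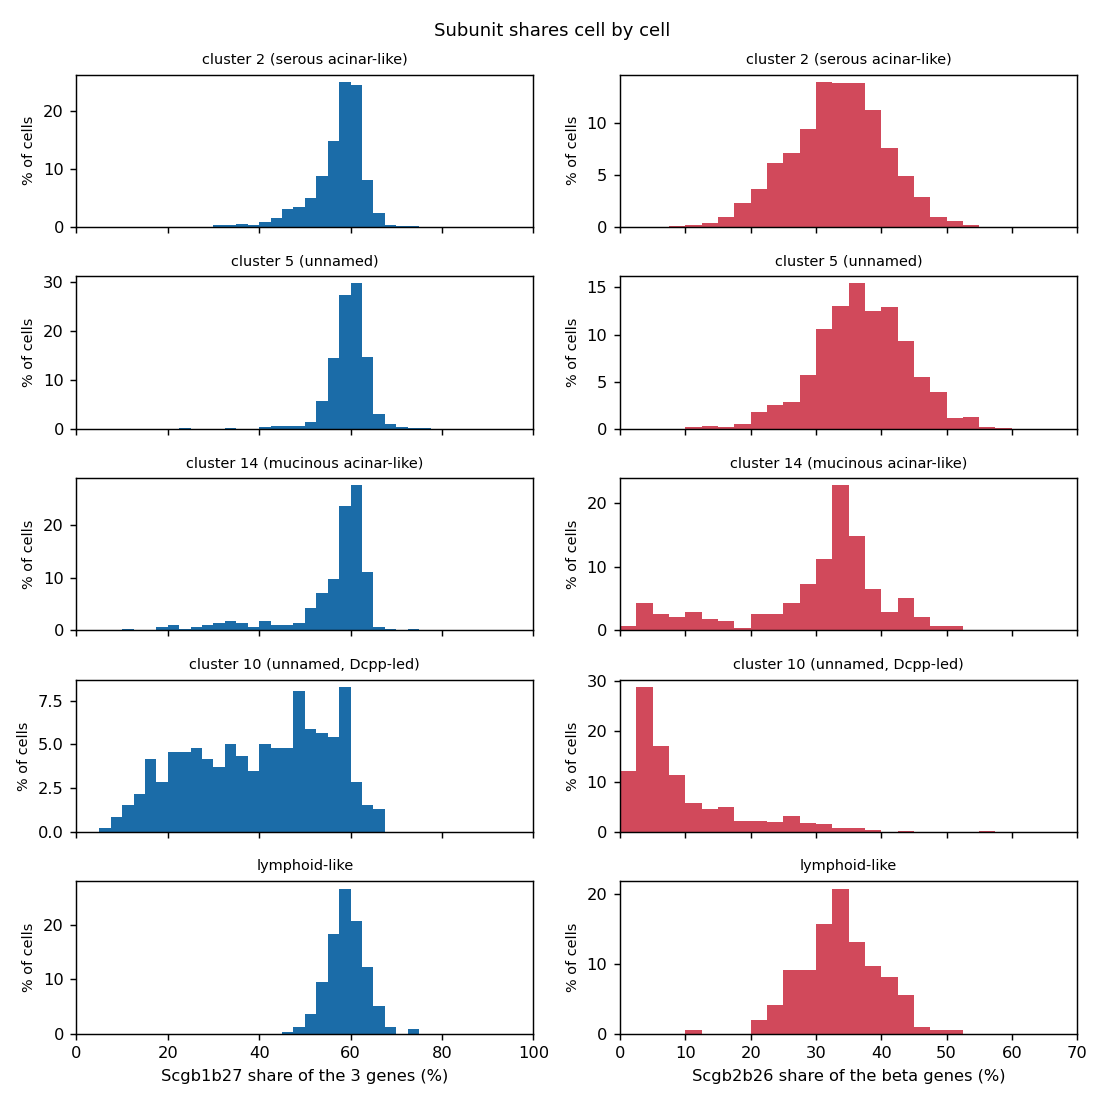
Distribution over single cells of the *Scgb1b27* share of the 3 genes (left, cells with at least 100 UMIs of the 3 genes) and of the *Scgb2b26* share of the beta genes (right, cells with at least 50 beta UMIs), in steps of 2.5 percentage points. The y axes give the percent of the cells of each group. Clusters 2, 5 and the lymphoid-like cells have 1 peak each, cluster 10 is spread from 7.38% to 66.3% on the left and sits near 6.10% on the right, and cluster 14 has a small group of cells at low values beside its main peak.

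The rank correlations over cells are descriptions of cells of 1 matrix. The *Scgb2b26* share was higher in cells with more *Mucl2* (UMIs per 10000 of the other genes) in cluster 10 (Spearman rho 0.650, 462 cells) and in cluster 14 (0.601, 276 cells). It was lower in cells with more Dcpp UMIs in both, with rho of -0.373 and -0.551. In serous acinar-like cells the corresponding values were 0.367 and -0.424 over 1266 cells. The alpha share and the *Scgb2b26* share were positively related in some clusters, with rho of 0.407 in cluster 14 (274 cells), 0.284 in cluster 2 (1266 cells) and 0.217 in cluster 10 (450 cells), but not in others, with 0.051 in cluster 1 (2288 cells), -0.081 in cluster 5 (973 cells), 0.000743 in ductal-like cells (662 cells) and 0.065 in lymphoid-like cells (195 cells).

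Within cells the alpha gene followed each beta gene more closely than the beta genes followed each other. On the scale log2(UMIs per 10000 UMIs of other genes + 1), Pearson's r over the 1267 serous acinar-like cells was 0.739 for *Scgb1b27* with *Scgb2b26*, 0.583 for *Scgb1b27* with *Scgb2b27* and 0.522 for the beta genes. In the 533 cells of cluster 10 the closest pair was *Scgb1b27* with *Scgb2b27* (0.787), against 0.660 for *Scgb1b27* with *Scgb2b26* and 0.509 for the beta genes. In the 1232 lymphoid-like cells the values were 0.806, 0.883 and 0.771. The correlations were thus as high in cells that should lack the genes, and were no sign of the cell type. The cells of a cluster share their library, and the shares of UMIs within a cell are bound to each other.

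Depth moved with the shares in serous acinar-like cells. When the 1267 cells were divided by total UMIs into 10 bins of near-equal size, the *Scgb2b26* share of the beta UMIs was 26.1% (25.7 to 26.4) in the shallowest bin, with a median of 4105 UMIs per cell. It was higher in each following bin and reached 39.3% (39.2 to 39.3) in the deepest, with a median of 67200 UMIs. The alpha share was 53.4% in the shallowest bin, 59.8% in bin 8 of 10 and 58.0% in the deepest. The 3 genes together kept 25.4% to 27% of all UMIs in every bin, so the composition of the 3 moved and not their sum. The median mitochondrial share was 2.53% in the shallowest bin and 0.677% in the deepest, and over single cells its rho with the *Scgb2b26* share was -0.519, whereas that of the total UMIs of other genes was 0.520. The part of cell quality in this change was not tested.

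The relation with depth was not the same in other clusters. In cluster 5 the *Scgb2b26* share was 29.0% in the shallowest bin and 42.4% in the deepest, and in cluster 1 it was 33.8% and 36.5%. In lymphoid-like cells the bins lay between 30.7% and 35.1% with no steady direction. In cluster 10 the direction was opposite, from 20.1% (18.5 to 21.8) in the shallowest bin (median 2067 UMIs per cell) to 8.41% in the deepest, with the lowest value, 5.51%, in bin 9. The alpha share of cluster 10 went from 51.4% to 43.1%. Shallow cells of clusters 2 and 10 were thus nearer to each other in both shares than deep cells were. In cluster 10 *Mucl2* took 8.20% of the UMIs in the shallowest bin, 0.935% in bin 9 and 1.75% in the deepest. *Dcpp1* to *Dcpp3* took 63.6% in the shallowest bin and 80.7% in the deepest. The part of free RNA in the change of the shares was not tested.

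**Figure D5:**
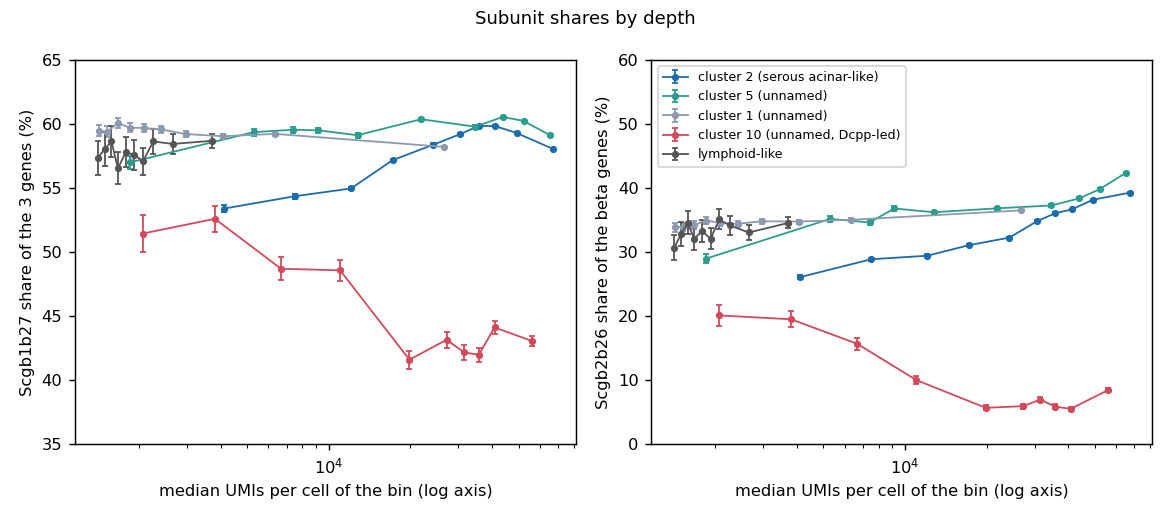
Shares by depth, for 10 bins of each group by total UMIs. The x axes give the median UMIs per cell of a bin on a log scale, the y axes the *Scgb1b27* share of the 3 genes (left) and the *Scgb2b26* share of the beta genes (right) in percent, and bars are exact binomial 95% intervals. Cluster 2 climbs from 26.1% to 39.3% on the right while cluster 10 goes from 20.1% to 8.41%, and the lymphoid-like bins stay between 30.7% and 35.1%.

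Other products of serous cells followed the 3 genes over the clusters. Among 3902 genes with at least 1000 UMIs, the pattern most like that of *Scgb2b26* over the 23 clusters was that of *Mucl2* (Pearson's r 0.996 of log2(UMIs per 10000 + 0.1)), followed by *Prol1* (0.992), which codes for a proline-rich secreted protein, and *Car6* (0.992), the secreted carbonic anhydrase of saliva. For *Scgb1b27* the order was *Mucl2* (0.977), *Prol1* (0.974), *Car6* (0.973), *Agt* (0.905), which codes for angiotensinogen, and *Lpo* (0.905), the salivary peroxidase. For *Scgb2b27* it was *Car6* (0.925), *Prol1* (0.921), *Mucl2* (0.917), *Lpo* (0.912) and *4631405J19Rik* (0.897). The next for *Scgb2b26* were *Agt* (0.908) and *Lpo* (0.897). For *Mucl2*, *Prol1* and *Car6* the correlation was thus highest with *Scgb2b26* and lowest with *Scgb2b27*, whereas for *Lpo* the order was opposite. The members themselves correlated at 0.983 (*Scgb1b27* with *Scgb2b26*), 0.978 (*Scgb1b27* with *Scgb2b27*) and 0.930 (the beta genes). These clusters share 1 matrix and its free RNA.

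The serous products that were fixed for comparison did not all follow the members. From serous acinar-like cells to cluster 10, *Pip*, which codes for the prolactin-inducible protein, went from 226 to 36.5 UMIs per 10000, *Prol1* from 218 to 5.25, *Car6* from 136 to 3.65 and *Lpo* from 1.56 to 0.0841. *Bpifa2*, which codes for a secreted defence protein, went the opposite way, from 0.909 to 247, with *Dcpp1* (3.59 to 1488), *Dcpp2* (5.72 to 2479) and *Dcpp3*. Of the members, *Mucl2* and these 4 lower products, only *Pip* differed by a smaller factor than *Scgb2b27*, which stood at 714 and 98.1.

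To see how tightly the subunit genes were held to each other, the ratio of every pair of the 30 most abundant genes of serous acinar-like cells was followed over the 1267 cells. The SD of the log2 ratio beyond counting error was 0.344 for *Scgb1b27* with *Scgb2b26*, which ranked 66 of 435 pairs from the tightest. It was 0.420 for *Scgb1b27* with *Scgb2b27* (rank 88) and 0.480 for *Scgb2b27* with *Scgb2b26* (rank 97). The median over all pairs was 0.831 and the highest 1.67, whereas some pairs of ribosomal protein genes, such as *Rpl32* with *Rpl37*, were at 0. A value of 0 is given where the counting error taken off was at least as large as the variance. It does not mean that the ratio had no spread. On this measure the member pairs were tighter than most pairs and ranked behind many pairs of ribosomal protein genes. The ratio of *Scgb2b27* to *Car6*, at 0.404, was tighter than that of *Scgb2b27* to either other member.

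Few other secretoglobin genes were measured in these glands. The matrix lists 34 Scgb genes, and of the 31 that are not members 20 had no UMI. A 1-sided 95% Poisson bound allows up to 3 UMIs for each of these 20. The other 11 had 2969 UMIs in all, so that the members outnumbered them by 7425 to 1. *Scgb1c1* had 2025 of these, in 1067 cells, and was highest in cluster 7 (ductal-like, led by kallikrein genes), at 3.27 UMIs per 10000 (3.06 to 3.50). *Scgb2b24* had 609, *Scgb2b7* 167, *Scgb1b7* 118 and *Scgb2a2* 18. How the authors' counting divided reads between near-identical paralogues is not given in the sources used here, and the values of these genes are uncertain to that extent.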

How the data were processed

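The authors deposited 1 matrix of raw UMI counts, not normalized, which per the file header was made with Cell Ranger 6.0.1. The submitters' processing notes also name Seurat 4.1.1 and the build mm10, whereas the annotation used for counting is not given in the sources used here. Of the study's other data, none was used. The genes, marker lists and rules were chosen with earlier results of these data known.

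All 15707 barcodes were kept (1374 to 141509 UMIs per cell, median 2608), at a median of 689 genes. Seurat 5.3.0 in R 4.3.3 log-normalized the counts to 10000 per cell. Of 2000 variable genes the 4 Scgb genes were removed, and cells were clustered on 20 principal components at resolution 0.5. A marker counted where at least 25% of a cluster's cells showed it and its level exceeded that in the remaining cells. A name needed at least 3 markers, more than any other list, and a median of at least 500 genes per cell. It was withheld where another list had more markers among the 10 leading genes (clusters 15, 16 and 20), or where a list of another lineage also had at least 3 markers (clusters 20 and 22). Scrublet (scanpy 1.11.5) called 0 doublets and is taken not to have worked, so doublets were treated only by leaving out the highest scores.

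Levels are UMIs summed over a group per 10000, with exact Poisson intervals, and shares carry exact binomial (Clopper-Pearson) 95% intervals. The SD beyond counting error is the square root of the variance over cells less the mean binomial variance, and for log2 ratios, with 0.5 added to each count, less the Poisson variance. A negative difference was set to 0. A fold was computed where a gene had at least 10 UMIs in the groups together, and was called at 4-fold. Tables and plots were made in Python 3.11.15 (pandas 2.3.3, numpy 2.4.6, matplotlib 3.10.9, scipy 1.17.1). The intervals, the SD of shares beyond counting error and the folds were tested on simulated data, whereas the SD of log2 ratios was not.

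Besides the members, the genes named were set by rule: the Scgb genes with most UMIs, 9 serous products, the 5 genes most like each member, and the 30 most abundant genes for pairs. The alternatives changed the cells kept, the clustering, the treatment of free RNA and doublets, the minimum counts and the scale of the level. The Dcpp-led cluster as a result, and clusters 1 and 5 joined to the serous acinar-like cells, were added after seeing the data.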

Additional observations from a re-analysis of the deposited data

How the results depend on the processing

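No paired analysis was possible because the matrix holds 1 sample whose cells carry no replicate number. Over 65 alternative values of the 7 main results, 23 stayed within the counting interval of the reported value and 42 left it, and the alpha share of lymphoid-like cells stayed within its interval under all 7. Most changes came with clusterings that gave a larger serous acinar-like class, of up to 2400 cells, and the cause was not tested. The alpha share, 58.5% as reported, was 59.0% with a filter of 200 genes and 20% mitochondrial UMIs, with 10 or 30 principal components, at resolution 0.3, with the Scgb genes kept and with clusters 1 and 5 joined. The *Scgb2b26* share of beta, 35.9%, was 37.0% under the first 5 of these, 36.8% with clusters 1 and 5 joined and 35.9% at resolution 0.8. The median alpha share over cells, 58.7%, was 59.3% with the filter, with 10 components and with the Scgb genes kept, 59.2% with 30 components and at resolution 0.3, 59.6% with the clusters joined and 59.1% over every cell of the matrix with 100 member UMIs. The SD beyond counting error, 5.65 points, was 5.10 with the filter, 5.02 with 10 and 5.19 with 30 components, 5.12 at resolution 0.3, 5.14 with the Scgb genes kept, 4.64 with the clusters joined and 6.78 over every cell. The summed level, 2685 UMIs per 10000, was 2539 with the filter, 2534 with 10 and 2554 with 30 components, 2537 at resolution 0.3, 2682 at 0.8, 2546 with the Scgb genes kept, 2482 with the clusters joined, 3670 per 10000 UMIs of other genes and 2665 with cells thinned to 500 UMIs. The *Scgb2b26* share of the Dcpp-led cluster, 7.98%, was 7.83% with the filter, 16.1% with 10 and 7.23% with 30 components, 8.13% at resolution 0.8, 7.37% with the Scgb genes kept and 3.96% with free RNA taken away, and at resolution 0.3 no such cluster was formed. The levels of the mucinous acinar-like and vascular-like classes, whose changes with the clustering stand beside them, were recomputed as an alternative added after seeing the data. Depth limits the shares per cell: 251 of 1232 lymphoid-like and 193 of 1066 myeloid-like cells had the 100 member UMIs needed.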

Other observations

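A single cell held nearly all transcripts of several other secretoglobin genes. It belonged to cluster 1, with 72833 UMIs on 2398 genes, and 71 cells of the matrix were deeper. This cell had 165 of the 167 UMIs of *Scgb2b7*, 117 of the 118 of *Scgb1b7*, 346 of the 609 of *Scgb2b24* and all 5 of *Scgb1b24*. Elsewhere in the matrix no cell had more than 1 UMI of *Scgb2b7* or *Scgb1b7*, or more than 4 of *Scgb2b24*. The genes came in alpha and beta pairs of the same number, as *Scgb1b7* with *Scgb2b7* and *Scgb1b24* with *Scgb2b24*. Its members were at 10842 UMIs for *Scgb1b27*, 4064 for *Scgb2b27* and 4503 for *Scgb2b26*, which gave an alpha share of 55.9% and a *Scgb2b26* share of the beta UMIs of 52.6%. *Mucl2* took 55.4% of its UMIs. The cell was chosen after its values had been seen.

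*Scgb2a2* had 18 UMIs in 9 cells, of which 14 lay in 5 cells of cluster 15, the cluster led by *Smgc*, which codes for submandibular gland protein C.

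The study's supplement lists primers for quantitative PCR of the 3 genes, shown here because their match decides which subunit gene they measure. The same pair is given for *Scgb2b27* and for *Scgb1b27*, with the forward primer CTACTGCAGCGGAAAGGGT and the reverse primer TCTGGAAGGCATGATGAGGG. In the transcripts of GENCODE M21, searched for exact matches, the forward primer matched 3 transcripts of *Scgb2b27* and the reverse primer 2 of them. The reverse primer did not match the main transcript of *Scgb2b27*, the one whose length is given above. Neither primer matched a transcript of *Scgb1b27*. The pair for *Scgb2b26*, GTAGCTGAAAGGGTGGCCTT and TCTTGCATTCTGGGCTTAAGT, matched the transcript of *Scgb2b26* and of no other gene.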
